A study of Mus musculus with 54 samples.

Results

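RNA from the whole cerebellum of adult mice, 9 weeks old, was compared between libraries with a deletion of Rnaseh2b in the nervous system and their controls. The comparison rests on 14 of the 54 libraries of the series: the 7 labelled RnaseH2B Nes-cre and the 7 labelled Control at this age, taken from the 9-week expression table by their column names. All 14 were total RNA libraries, and the series also holds libraries from P28 and P5. Nes-cre is a Cre recombinase driven by the Nestin promoter, which is active in neural progenitors, so neurons, astrocytes and oligodendrocytes inherit the deletion while microglia, vessels and blood keep the gene. The labels give no allele for the controls beyond the word Control, no sex, and nothing on whether each library came from its own animal. The p-values therefore speak of the spread among these 14 libraries, part of which may be technical. The codes in the labels fall into 2 sets: codes 11 to 16 hold 3 libraries of each group and are called the first code set here, and codes 50 to 58 hold 4 of each group and are called the second. What the codes stand for was not stated in the labels.

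RNase H2 is an enzyme of 3 subunits that removes ribonucleotides left in DNA by the polymerases and cuts RNA paired with DNA. Rnaseh2b encodes a subunit that does not carry the active site but is needed for the complex. Inherited loss of function in the human genes for this enzyme is a cause of Aicardi-Goutières syndrome, a brain disease marked by a type I interferon response, in which nucleic acids sensed in the cytosol switch on a set of interferon-stimulated genes. In the cerebellum the main cell types are granule neurons, Purkinje cells, the inhibitory interneurons of the molecular layer and the Golgi cells, with Bergmann glia, oligodendrocytes and microglia among them.

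The deposited values are log2 of counts scaled to the library total (log2 CPM), and 15078 of 17827 features reached 1 CPM in at least 7 libraries and were tested. The values had been centred, so that each feature has the same mean in both code sets. Levels of 1 set therefore cannot be compared with levels of the other, while differences between the groups within a set are kept. Ranges over 7 libraries are given on these centred values. Markers of the tissue were high in every library: Gabra6 of granule neurons was at least 8.33 log2 CPM, Pcp2 of Purkinje cells at least 6.63, Slc1a3 of Bergmann glia and astrocytes at least 9.51 and Mbp of myelin at least 10.08. The libraries also differed in transcripts of neighbouring tissues and in Xist. Transcripts of brainstem and midbrain, where serotonin and catecholamine neurons lie, separated the groups in the first code set. There Tph2, for serotonin synthesis, was -2.76 to -0.96 log2 CPM in controls 1 to 3 and 2.42 to 3.87 in Rnaseh2b 1 to 3. Within the second set the groups overlapped, at -0.12 to 1.14 in controls and 0.33 to 1.17 in Rnaseh2b libraries. Choroid plexus differed within the second: Ttr, its main secreted product, was 3.35 to 4.97 log2 CPM in Rnaseh2b 4 to 6 and 8.95 to 11.48 in the others of that set. Xist, expressed from the inactive X of females, was 8.17 log2 CPM or more in 3 of 7 control and 5 of 7 Rnaseh2b libraries, 2 of 3 in both groups of the first code set and 1 of 4 against 3 of 4 in the second. Of 17 genes listed for brainstem and midbrain 4 passed the filter on low values (Tph2, Th, Ddc and Otx2), and no Hox gene did. Otx2 is also listed for choroid plexus and for unipolar brush cells, and it differed by -0.13 while the other 3 were above 0. The covariate called brainstem below is the mean of these 4 genes and is not particular to that tissue. The first principal component held 28.2% of the variance, with Rnaseh2b 3 at its high end and Rnaseh2b 7 nearest the controls. Fits with the brainstem genes, the choroid plexus genes or Xist as a covariate are given below. The part of these differences in the results was not tested otherwise. The values of both code sets are given with the main groups of genes.

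Rnaseh2b itself separated the groups. It lay at 3.33 to 3.72 log2 CPM (median 3.39) in control and at 2.15 to 2.78 (median 2.55) in Rnaseh2b libraries. The ranges did not overlap, and the difference was -1.02 ± 0.10 log2 (± here and below is the standard error; limma, adjusted p = 9.4e-05), or 49.4% of the control level. It was -1.20 in the first code set and -0.88 in the second. In the separate tables of the younger mice the difference of the means was -1.72 at P28 and -2.27 at P5, untested here. Signal from cells outside the reach of Nes-cre and signal left in cells that carry the deletion cannot be told apart in RNA from whole tissue.

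Genes of RNase H2 and of ribonucleotide handling showed few differences. Of 13 tested, 2 fell (Rnaseh2b and Tdp2) and 1 rose (Rrm2b), beside 7.67% of all genes tested that were called lower and 8.65% that were called higher. Tdp2, which frees DNA ends from trapped topoisomerase 2, was 4.71 to 5.09 log2 CPM (median 4.88) in control and 4.38 to 4.78 (median 4.68) in Rnaseh2b libraries and fell by 0.24 ± 0.08 log2 (limma, adjusted p = 0.04). Rrm2b, a subunit of ribonucleotide reductase that p53 controls, was 4.52 to 4.82 log2 CPM (median 4.62) in control and 4.67 to 5.02 (median 4.87) in Rnaseh2b libraries, a rise of 0.22 ± 0.07 (limma, adjusted p = 0.036). Both pairs of ranges overlapped at their edges. Among the most expressed members, Adar, which edits double-stranded RNA, differed by 0.14 ± 0.05 (limma, adjusted p = 0.082), Top1, the topoisomerase that can cut at ribonucleotides, by -0.15 ± 0.05 (limma, adjusted p = 0.054) and Rrm1 by -0.12 ± 0.05 (limma, adjusted p = 0.11), and none of the 3 was called.

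Across all genes the deletion went with many small differences. At an adjusted p below 0.05 (limma, Benjamini-Hochberg), 1305 genes were higher and 1156 lower in Rnaseh2b libraries. Of these 2461 genes, 36 differed by more than 1 log2 unit and 1960 by less than 0.5, and the median size was 0.32. On the centred values, every Rnaseh2b library lay above every control in 366 genes (2.43%) and below every control in 289 (1.92%). Such separation of all 14 libraries, called apart below, spans both code sets and so rests in part on the centring. The median over all genes tested was 0.00.

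The 2 code sets gave different numbers of calls. In the first, 3 libraries against 3, 1084 genes passed (7.19%), 597 higher and 487 lower; in the second, 4 against 4, 90 passed (0.597%), 62 higher and 28 lower. All 2461 genes of the pooled comparison had the same sign in both sets, which the pooled call itself favours. There were 48 genes that passed in both sets with the same sign, 31 higher and 17 lower. The test of the difference between the sets called 5 genes (0.0332%), with 1575 at an unadjusted p below 0.05. When the level of the 4 tested brainstem and midbrain genes was entered as a covariate, a setting chosen after seeing the data, 73 genes were called, 40 higher and 33 lower; this covariate follows the groups closely in the first code set. Of all 15078 genes, 4371 had an unadjusted p below 0.05 in the first set, 2427 in the second and 1898 with this covariate. In the pooled comparison 5055 did. Counts of list members below are to be read beside these. In the second set and with this covariate few genes passed, so a list without calls is near the share of all genes. With Xist or the choroid plexus genes as a covariate, 1728 and 2002 genes were called. Without Rnaseh2b 3 and Rnaseh2b 7, 1465 genes were called, 857 higher and 608 lower. These counts hung on single libraries: the first set had 9 calls without control 2, 26 without control 3 and 176 without Rnaseh2b 3, and the second had 2 without Rnaseh2b 4, 3 without control 7, Rnaseh2b 5 or Rnaseh2b 6, 5 without control 5, 26 without control 6 and 51 without control 4. The count for the difference between the sets was 3 without control 2, 3 or 7, 19 without Rnaseh2b 1 and 28 without Rnaseh2b 7. The pooled count was lower by more than 1.5 times without control 2 (1637), control 3 (1326), Rnaseh2b 1 (1599) or Rnaseh2b 3 (1482).

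**Figure D1:**
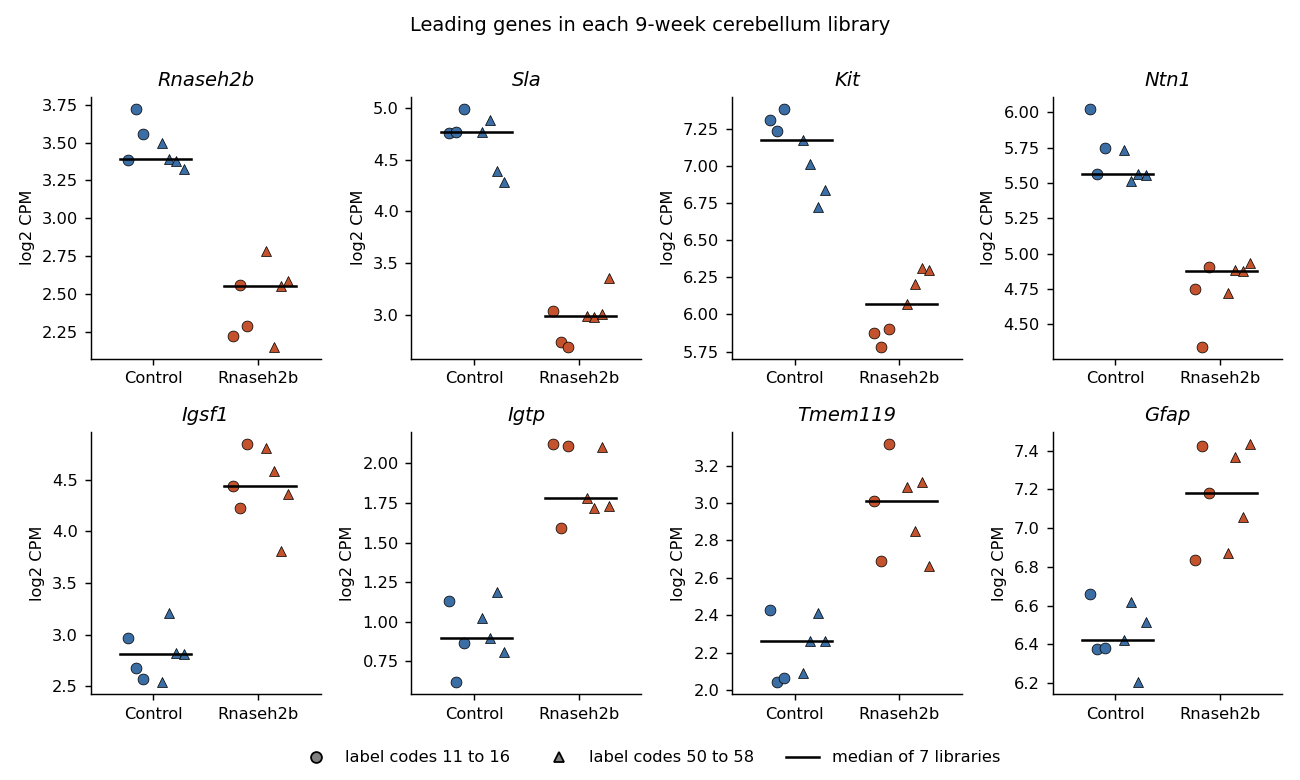
Levels of 8 genes in log2 CPM (vertical axes) in each control and Rnaseh2b library, with circles for label codes 11 to 16, triangles for codes 50 to 58 and a line at the median of the 7 libraries. In each of the 8 genes the 7 Rnaseh2b libraries lie apart from the 7 controls, below them for Rnaseh2b, Sla, Kit and Ntn1 and above them for Igsf1, Igtp, Tmem119 and Gfap.

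The 12 largest rises and falls are given here among called genes whose mean level reached 1 log2 CPM, with the same sign in both code sets and every Rnaseh2b library on the same side of the control mean, without gene models. Among the falls, Sla, an adaptor protein that dampens receptor tyrosine kinase signalling, had the largest of them: 4.28 to 4.99 log2 CPM (median 4.76) in control and 2.70 to 3.36 (median 2.99) in Rnaseh2b libraries. Every Rnaseh2b library lay well below every control, and the fold change was -1.71 ± 0.12 (limma, adjusted p = 1.8e-06), -2.01 in the first and -1.49 in the second code set. Kit, the receptor tyrosine kinase of molecular layer interneurons, was 6.72 to 7.38 log2 CPM (median 7.18) in control and 5.78 to 6.31 (median 6.07) in Rnaseh2b libraries, again without overlap. Its fold change was -1.03 ± 0.11 (limma, adjusted p = 0.00015), with -1.45 in the first and -0.72 in the second code set. Ntn1, the guidance cue netrin, was 5.51 to 6.03 log2 CPM (median 5.57) in control and 4.34 to 4.93 (median 4.88) in Rnaseh2b libraries, -0.90 ± 0.10 (limma, adjusted p = 0.00015), and the groups were apart. The gap held in both sets, at -1.12 and -0.74.

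Rnaseh2b itself was among the 12 largest falls, and the others were these. Asgr1, a subunit of the asialoglycoprotein receptor, differed by -1.18 ± 0.17, Adamts15, a secreted protease of the extracellular matrix, by -0.95 ± 0.09, and its relative Adamts18 by -0.74 ± 0.14. The transcriptional repressors Prdm8 and Bhlhe22, which act as partners in neurons, fell by 0.80 ± 0.10 and 0.74 ± 0.10. For Asgr1, Adamts15, Prdm8 and Bhlhe22 the groups were apart, and for Adamts18 the ranges overlapped. Trim67, a ubiquitin ligase of the nervous system, was at -0.89 ± 0.17, Chi3l7, a chitinase-like gene, at -0.87 ± 0.21 and AA474408 at -0.80 ± 0.22, all with overlapping ranges and adjusted p-values in limma of 0.0045, 0.014 and 0.025. With the brainstem covariate Sla (-1.47), Adamts15 (-0.85), Ntn1 (-0.81), Kit (-0.71), Prdm8 (-0.63) and Bhlhe22 (-0.48) were still called, and Rnaseh2b too, at -0.84. Asgr1 (-0.76), Trim67 (-0.60), Chi3l7 (-0.53), AA474408 (-0.53) and Adamts18 (-0.48) were not.

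The largest rises were led by Igsf1, a membrane protein of the immunoglobulin superfamily. It was 2.54 to 3.21 log2 CPM (median 2.81) in control and 3.81 to 4.84 (median 4.44) in Rnaseh2b libraries. No library of the groups overlapped, and the fold change of 1.64 ± 0.15 (limma, adjusted p = 3.9e-05), or 3.12-fold, was 1.77 in the first and 1.54 in the second code set. Wif1, a secreted inhibitor of Wnt ligands, was -0.07 to 1.51 log2 CPM (median 0.97) in control and 1.79 to 3.08 (median 2.26) in Rnaseh2b libraries, 1.36 ± 0.23 (limma, adjusted p = 0.0025), and Cpxm2, a carboxypeptidase-like secreted protein, was 0.28 to 1.38 log2 CPM (median 0.88) in control and 1.87 to 2.39 (median 2.17) in Rnaseh2b libraries, 1.26 ± 0.17 (limma, adjusted p = 0.00071). These too were apart, and both had their larger effect in the second code set, 1.74 against 0.86 for Wif1 and 1.56 against 0.85 for Cpxm2.

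Of the other genes among the 12 largest rises, Slit1, Baiap3, Htr1a and Gabrq had the larger effect in the first code set. The test of the difference between the sets called none of the 12. The guidance cue Slit1 was at 1.23 ± 0.19, with 1.5 in the first and 1.02 in the second. Baiap3, which acts in the release of dense-core vesicles, was at 1.21 ± 0.17, with 1.54 and 0.97. The serotonin receptor Htr1a was at 1.14 ± 0.22, with 1.51 and 0.85. Gabrq, the theta subunit of GABA-A receptors, differed most between the sets, at 2.03 against 0.43 (pooled 1.12 ± 0.30, limma, adjusted p = 0.021). The rest were Accn4 (1.27 ± 0.26), a channel of the acid-sensing family, Fibcd1 (1.11 ± 0.25), Gng4 (1.09 ± 0.17), a G protein gamma subunit, Tac1 (1.09 ± 0.23), the precursor of substance P, and Myoc (1.06 ± 0.32), the secreted glycoprotein myocilin. Of the 12, Igsf1 (1.43), Wif1 (1.66) and Cpxm2 (1.55) kept their call with the brainstem covariate. The other 9 were no longer called, at 0.70 to 0.99 in 8 of them and 0.30 for Gabrq.

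**Figure D2:**
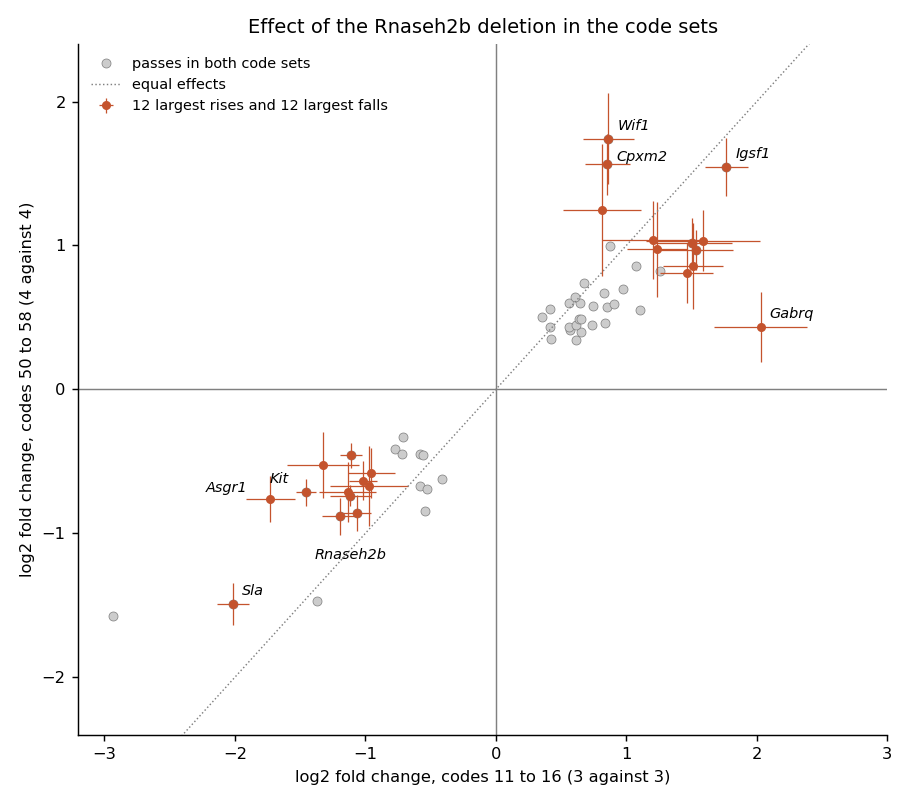
Log2 fold change of Rnaseh2b less control in label codes 11 to 16 (horizontal axis, 3 libraries against 3) and in codes 50 to 58 (vertical axis, 4 against 4), with bars of 1 standard error. Orange points are the 12 largest rises and the 12 largest falls, grey points are the 48 genes that passed in both sets. All lie in the quadrants of equal sign because both selections required it. Gabrq at 2.03 and 0.43 is far off the dotted line of equal effects and Igsf1 at 1.77 and 1.54 close to it.

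The 5 genes whose effect differed between the code sets include 2 of the brainstem list. For Tph2 the effect in the second set less that in the first was -4.61 ± 0.60 (limma, adjusted p = 0.0089), from 4.88 to 0.26, and for Ddc, the decarboxylase of serotonin and dopamine synthesis, it was -2.00 ± 0.29 (limma, adjusted p = 0.015), from 1.94 to -0.06. RNaseP_nuc, the RNA of nuclear RNase P, was 5.78 to 5.86 log2 CPM in controls 1 to 3 and -5.02 to -4.28 in Rnaseh2b 1 to 3. Within the second set it was -3.07 to 1.72 in controls and 0.46 to 2.19 in Rnaseh2b libraries, on values centred between the sets. Tdg, a thymine DNA glycosylase, differed by -0.30 and 0.48, and the gene model Gm16836 by 1.10 and 0.05. In RNaseP_nuc and Tdg the sign turned between the sets. The pooled difference of RNaseP_nuc, -3.65 ± 1.56 on log2 CPM and not called (limma, adjusted p = 0.11), turned to 0.11 on the log2 scale of FPKM plus 0.1.

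Interferon-stimulated genes were higher in the Rnaseh2b libraries. Of 40 tested of 52 listed, 26 rose (65%, beside 8.65% of all genes), 1 fell (2.5%, beside 7.67%) and 13 were not called. Of the 40 differences 38 were above 0, with a median of 0.53 against 0.00 over all genes. Igtp, an interferon-inducible GTPase, was 0.62 to 1.19 log2 CPM (median 0.89) in control and 1.59 to 2.12 (median 1.78) in Rnaseh2b libraries. The groups were apart, with a fold change of 0.95 ± 0.12 (limma, adjusted p = 0.00071), 1.07 in the first code set and 0.86 in the second. Gbp7, a guanylate-binding protein, was 2.39 to 3.15 log2 CPM (median 2.69) in control and 3.22 to 3.56 (median 3.29) in Rnaseh2b libraries, 0.60 ± 0.11 (limma, adjusted p = 0.0038), and the ubiquitin ligase Trim25, which acts with the RNA sensor RIG-I, was 1.53 to 2.01 log2 CPM (median 1.91) in control and 2.14 to 2.90 (median 2.34) in Rnaseh2b libraries, 0.62 ± 0.13 (limma, adjusted p = 0.008). Dtx3l, another ubiquitin ligase, was 2.64 to 2.94 log2 CPM (median 2.70) in control and 2.99 to 3.26 (median 3.17) in Rnaseh2b libraries, 0.40 ± 0.07 (limma, adjusted p = 0.0031). All 3 were apart between the groups. Over the whole list 6 of 40 were apart and higher, beside 2.43% of all genes.

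The letters of the interferon-stimulated response element were looked for in the promoters of these genes, since this is the motif through which the transcription factor complex activated by type I interferon acts. The motif was spelled as GAAA, any 2 bases and GAAA again, and searched on both strands, overlapping matches included, in the 300 bases from 250 before to 50 after each RefSeq gene start of GRCm38.p6. Of 32 tested members with a promoter in that table, 16 held it, and of the 22 that rose with a promoter, 12 (54.5%). It was in 4 of the 10 tested members that did not rise, in 352 of 9902 tested genes (3.55%) and in 1131 of all 32851 promoters (3.44%). The stretches of 80 bases around the matches of 4 members that rose, on the strand of the gene, are shown because they carry the motif common to this group, with the matches in capitals, and a match is a description of letters alone. Igtp has it at chr11:58199476-58199555 (+), Gbp7 at chr3:142530248-142530327 (+) as its reverse complement, Irgm1 at chr11:48871421-48871500 (-) as 2 overlapping matches, and Ifit1 at chr19:34640750-34640829 (+) as 2 reverse complements.
Igtp: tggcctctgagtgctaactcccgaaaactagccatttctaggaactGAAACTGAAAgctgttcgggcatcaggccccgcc
Gbp7: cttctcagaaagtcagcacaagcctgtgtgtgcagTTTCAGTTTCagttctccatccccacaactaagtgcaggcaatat
Irgm1: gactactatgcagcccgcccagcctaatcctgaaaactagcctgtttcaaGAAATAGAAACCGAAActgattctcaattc
Ifit1: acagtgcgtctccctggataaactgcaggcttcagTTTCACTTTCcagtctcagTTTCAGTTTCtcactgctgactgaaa

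The genes shown by sequence all rose. Irgm1, a further GTPase of this family, was 2.10 to 2.59 log2 CPM (median 2.34) in control and 2.69 to 3.43 (median 2.86) in Rnaseh2b libraries, 0.52 ± 0.11 (limma, adjusted p = 0.0086), and the groups were apart. Ifit1, which binds RNA without the methylated cap of the host, was 1.08 to 2.20 log2 CPM (median 1.80) in control and 2.03 to 2.93 (median 2.41) in Rnaseh2b libraries, 0.79 ± 0.18 (limma, adjusted p = 0.011), with ranges that overlapped. Irf7, the transcription factor that amplifies the interferon response, was 0.07 to 1.10 log2 CPM (median 0.24) in control and 0.60 to 2.07 (median 1.10) in Rnaseh2b libraries, 0.88 ± 0.25 (limma, adjusted p = 0.025). Here the ranges overlapped, and the effect was 1.37 in the first and 0.52 in the second code set.

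Stat2, a transcription factor of the interferon response, was the member that fell, at 5.33 to 5.77 log2 CPM (median 5.70) in control and 5.20 to 5.57 (median 5.36) in Rnaseh2b libraries, -0.28 ± 0.08 (limma, adjusted p = 0.024). Cmpk2, a mitochondrial nucleotide kinase, rose by 0.35 ± 0.08, and Ifi27l1 by 0.58 ± 0.17. The median of the list was 0.70 in the first code set, with 9 members higher and 1 lower, and 0.36 in the second, with Igtp the 1 higher. The mean of the members in each library, taken against the control mean, was -0.19 to 0.35 in control and 0.22 to 0.81 in Rnaseh2b libraries, where Rnaseh2b 2 was lowest and controls 6 and 7 were at 0.35 and 0.23. Without Rnaseh2b 3 and 7, 15 rose and 1 fell (median 0.43), without Rnaseh2b 3 alone 17 rose and none fell, and with the brainstem covariate Igtp rose (0.82), none fell, and 14 had an unadjusted p below 0.05 (median 0.29).

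Among genes that sense nucleic acids few were called. Of 12 tested, 2 rose (16.7%) and 1 fell (8.33%), beside 8.65% and 7.67% of all genes, with a median of 0.21. The median was 0.22 in the first code set and 0.18 in the second. Limma called none in either set alone, with 4 and 0 at an unadjusted p below 0.05. Tlr3, the endosomal receptor for double-stranded RNA, was 3.01 to 3.56 log2 CPM (median 3.47) in control and 3.47 to 4.05 (median 3.72) in Rnaseh2b libraries, 0.37 ± 0.11 (limma, adjusted p = 0.037). Ddx58, which encodes RIG-I and is also in the interferon list, was 2.24 to 2.77 log2 CPM (median 2.45) in control and 2.49 to 3.41 (median 2.93) in Rnaseh2b libraries, 0.46 ± 0.14 (limma, adjusted p = 0.033). Tbk1, the kinase that passes the signal on, was 5.76 to 5.93 log2 CPM (median 5.81) in control and 5.53 to 5.70 (median 5.67) in Rnaseh2b libraries, -0.16 ± 0.04 (limma, adjusted p = 0.022), and its ranges were apart. The 2 rises were not called without control 1, control 3, Rnaseh2b 3 or Rnaseh2b 7, without Rnaseh2b 3 and 7 together, with quantile normalization or with the brainstem covariate.

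MHC class I and complement genes were higher as well, 12 of 15 tested of 19 listed (80%, beside 8.65% of all genes), with none lower and a median of 0.53. The 3 chains of C1q, the first component of complement, which microglia make in the brain, rose together. C1qa was 3.30 to 3.74 log2 CPM (median 3.58) in control and 3.76 to 4.29 (median 4.22) in Rnaseh2b libraries, 0.58 ± 0.09 (limma, adjusted p = 0.0017), and C1qc 3.09 to 3.40 log2 CPM (median 3.35) and 3.61 to 4.11 (median 3.94), 0.59 ± 0.08 (limma, adjusted p = 0.00091). Both were apart between the groups, and C1qb, at 0.56 ± 0.11, overlapped at the edge. H2-T23, a nonclassical MHC class I gene, was at 0.66 ± 0.14, and the classical genes H2-K1 and H2-D1 at 0.57 ± 0.13 and 0.35 ± 0.08. MHC genes are near-identical copies, so their reads may have been split or shared in the authors' counting. The median was 0.52 in the first code set, with 4 members higher, and 0.42 in the second, with 2. The count of 12 was 7 with the replicate block, with Xist or the choroid plexus as a covariate and without control 2 or 3, and 6 without Rnaseh2b 1, without Rnaseh2b 3 or without Rnaseh2b 3 and 7. With the brainstem covariate, C1qc was the 1 member still called, at 0.56 (median 0.33). Of 10 genes of the NF-kB, chemokine and cytokine list, Il33, an alarmin of oligodendrocytes and astrocytes, rose by 0.69 ± 0.12 (limma, adjusted p = 0.0032) and none fell. This share of 10% was near the 8.65% of all genes called higher.

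Markers of microglia, cells outside the reach of Nes-cre, were higher. Of 19 tested of 20 listed genes of homeostatic microglia 11 rose (57.9%, beside 8.65% of all genes) and none fell. All 19 differences were above 0, and the median was 0.42. In RNA from whole tissue more cells of a type and more RNA per cell cannot be told apart, and this holds for every cell type below. Tmem119, a surface protein of microglia, was 2.04 to 2.43 log2 CPM (median 2.26) in control and 2.66 to 3.32 (median 3.01) in Rnaseh2b libraries. The groups were apart, at 0.74 ± 0.11 (limma, adjusted p = 0.0012), with 0.83 in the first and 0.67 in the second code set. Cx3cr1, the fractalkine receptor, was 2.75 to 3.03 log2 CPM (median 2.90) in control and 3.13 to 3.81 (median 3.42) in Rnaseh2b libraries, 0.53 ± 0.10 (limma, adjusted p = 0.0032), and Trem2, a lipid receptor of microglia, was 1.39 to 1.72 log2 CPM (median 1.52) in control and 1.83 to 2.34 (median 2.09) in Rnaseh2b libraries, 0.57 ± 0.10 (limma, adjusted p = 0.0024). Itgam, the integrin CD11b, was 2.13 to 2.75 log2 CPM (median 2.27) in control and 2.80 to 3.28 (median 2.88) in Rnaseh2b libraries, 0.60 ± 0.10 (limma, adjusted p = 0.0027). All 3 were apart. Of the 19 tested microglia genes 5 were apart and higher, beside 2.43% of all genes. Csf1r, the receptor these cells need to survive, rose by 0.35 ± 0.07 and Ctss by 0.45 ± 0.14, while Mertk was not called at 0.10 ± 0.07 (limma, adjusted p = 0.36).

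The summed level of this list was 176 to 209 CPM in control and 220 to 294 in Rnaseh2b libraries, without overlap. Its median was 0.51 in the first code set, with 6 members higher, and 0.27 in the second, with Tmem119 the 1 higher. Of 18 genes of phagocytic and activated microglia 3 rose (16.7%, beside 8.65% of all genes) and none fell, with a median of 0.17. Igf1, a growth factor, was 2.98 to 3.14 log2 CPM (median 3.02) in control and 3.35 to 3.84 (median 3.48) in Rnaseh2b libraries, 0.48 ± 0.08 (limma, adjusted p = 0.0015), and the groups were apart. The cathepsin Ctsb (0.17 ± 0.05) and the Fc receptor Fcgr3 (0.34 ± 0.11) were the others, and Apoe (0.12 ± 0.05) and Ctsd (0.14 ± 0.06) were not called. With the brainstem covariate limma called none of either list, beside 73 of all 15078 genes, at medians of 0.24 and 0.06. In that fit 10 and 5 members had an unadjusted p below 0.05, beside 1898 of all genes. Without Rnaseh2b 3 and 7, 9 of the homeostatic and 2 of the phagocytic genes rose, and with the replicate block 7 of the homeostatic.

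Some genes of astrocytes, which Nes-cre reaches, were higher. Of 19 tested astrocyte and Bergmann glia genes 7 rose and none fell, with a median of 0.19, and 2 of 12 reactive astrocyte genes rose. These are shares of 36.8% and 16.7%, beside 8.65% of all genes. Of the 19, 2 rose in the first code set (median 0.20) and 4 in the second (median 0.19). Gfap, the filament protein in both lists, was 6.21 to 6.66 log2 CPM (median 6.42) in control and 6.84 to 7.43 (median 7.18) in Rnaseh2b libraries. The groups were apart, at 0.71 ± 0.10 (limma, adjusted p = 0.001), with 0.67 in the first and 0.74 in the second code set. Aqp4, the water channel of astrocyte endfeet, was 8.67 to 9.03 log2 CPM (median 8.80) in control and 9.15 to 9.33 (median 9.26) in Rnaseh2b libraries, 0.46 ± 0.06 (limma, adjusted p = 0.00073), and Slc6a11, the GABA transporter GAT3, was 5.68 to 6.42 log2 CPM (median 6.25) in control and 6.55 to 7.51 (median 6.82) in Rnaseh2b libraries, 0.80 ± 0.14 (limma, adjusted p = 0.0024). Aldh1l1, a folate enzyme used as a marker of all astrocytes, rose by 0.30 ± 0.06, and all 3 were apart. Of the 19 tested genes 4 were apart and higher, beside 2.43% of all genes. Slc1a3, the glutamate transporter that is most abundant in Bergmann glia, was 9.91 to 10.27 log2 CPM (median 10.01) in control and 9.51 to 10.15 (median 9.94) in Rnaseh2b libraries and was not called, at -0.15 ± 0.09 (limma, adjusted p = 0.23). S1pr3 was the other reactive gene, at 0.50 ± 0.13, and Serpina3n, an acute-phase protease inhibitor, spread from 1.62 to 5.06 in Rnaseh2b against 3.85 to 4.48 in control libraries. With the brainstem covariate 3 of the 19 rose, Gfap at 0.75, Aqp4 at 0.51 and the gap junction gene Gja1 at 0.36.

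Oligodendrocyte genes were higher too. Of 20 myelin genes 6 rose and none fell, with a median of 0.28, and of 12 genes of their progenitors 5 rose, with a median of 0.24. The shares were 30% and 41.7%, beside 8.65% of all genes. Cnp, a myelin enzyme, was 7.92 to 8.05 log2 CPM (median 8.0) in control and 8.14 to 8.62 (median 8.22) in Rnaseh2b libraries, 0.29 ± 0.07 (limma, adjusted p = 0.011), and the groups were apart. Mobp, another myelin protein, was 8.61 to 9.26 log2 CPM (median 8.97) in control and 9.06 to 9.82 (median 9.32) in Rnaseh2b libraries, 0.41 ± 0.11 (limma, adjusted p = 0.024), and overlapped, and Mbp, at 0.20 ± 0.10, was not called. The progenitor genes that rose were Olig2 (0.54 ± 0.13) and Olig1 (0.44 ± 0.11), the transcription factors of the lineage, Cspg4 (0.48 ± 0.13), Lhfpl3 (0.33 ± 0.09) and C1ql1 (0.61 ± 0.18). The medians were 0.44 and 0.46 in the first code set and 0.15 and 0.07 in the second, and with the brainstem covariate limma called no member of either list, with 4 and 1 at an unadjusted p below 0.05. Of the myelin genes 2 rose with the replicate block or without control 3 and 3 with Xist as a covariate or without control 2, and of the progenitor genes 2 rose with the block and 3 without control 3 or without Rnaseh2b 3 and 7.

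**Figure D3:**
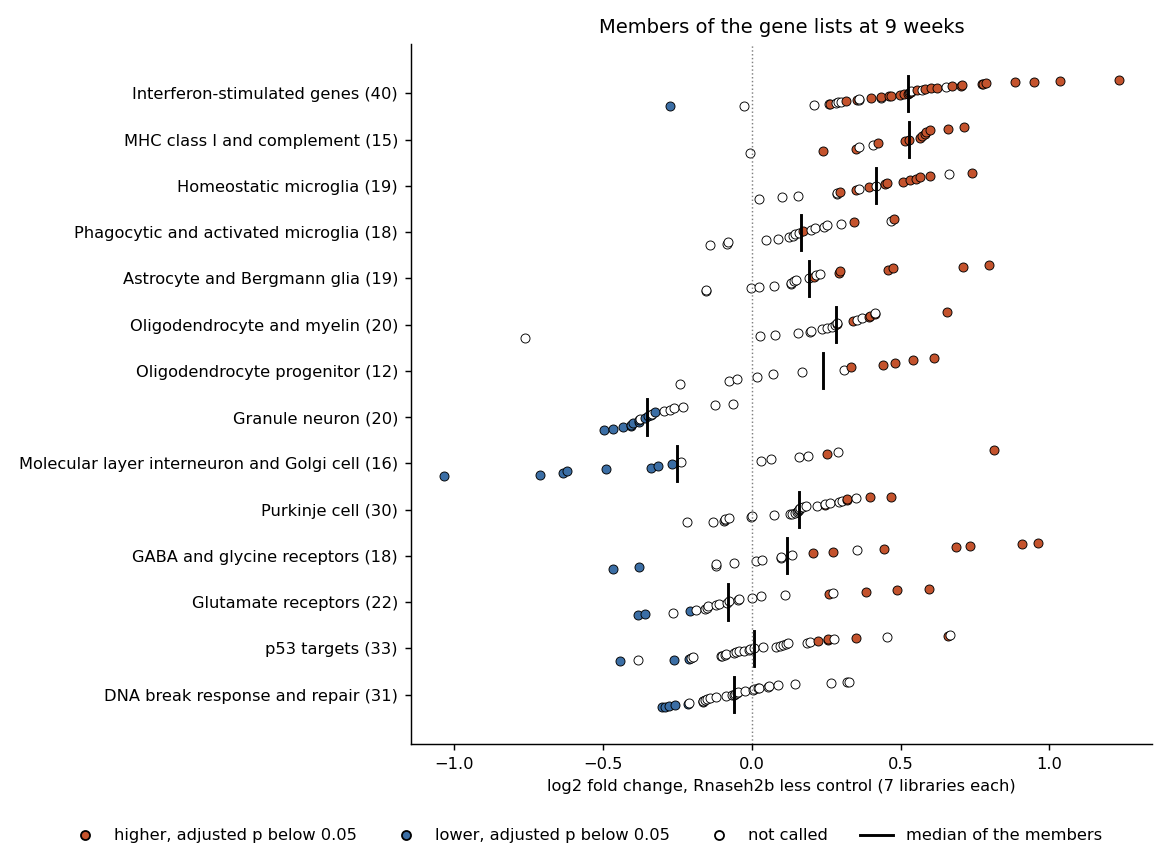
Log2 fold change of Rnaseh2b less control (horizontal axis, 7 libraries each) of every tested member of 14 gene lists, with the number tested in parentheses, filled where the adjusted p was below 0.05 and with a bar at the median of the list. The interferon, MHC and complement, and homeostatic microglia lists lie mostly right of 0, at medians of 0.53, 0.53 and 0.42, all 20 granule neuron genes lie left of 0, and the p53 and DNA break lists straddle it.

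Granule neuron genes were lower. Of 20 tested, 12 fell (60%, beside 7.67% of all genes) and none rose, all 20 differences were below 0, and the median was -0.35. Fat2, a large cadherin of the parallel fibres, was 10.08 to 10.57 log2 CPM (median 10.34) in control and 9.37 to 10.08 (median 9.77) in Rnaseh2b libraries, -0.50 ± 0.11 (limma, adjusted p = 0.0077). Gabra6, the GABA-A subunit particular to these cells in textbooks, was 9.16 to 9.62 log2 CPM (median 9.36) and 8.33 to 9.16 (median 9.01), -0.47 ± 0.11 (limma, adjusted p = 0.011). In both the highest Rnaseh2b library lay just below the lowest control. Reln, the secreted protein reelin, was 9.26 to 9.70 log2 CPM (median 9.46) in control and 8.72 to 9.26 (median 9.10) in Rnaseh2b libraries, -0.43 ± 0.09 (limma, adjusted p = 0.0052), Slc17a7, the vesicular glutamate transporter, was 7.61 to 8.0 log2 CPM (median 7.88) in control and 7.13 to 7.55 (median 7.49) in Rnaseh2b libraries, -0.38 ± 0.07 (limma, adjusted p = 0.0043), and the NMDA receptor subunit Grin2c was 7.59 to 8.09 log2 CPM (median 7.99) in control and 7.26 to 7.71 (median 7.54) in Rnaseh2b libraries, -0.36 ± 0.08 (limma, adjusted p = 0.01). The transcription factors Neurod1 and Pax6 fell by 0.40 ± 0.11 and 0.41 ± 0.10, and Cbln3, a synaptic organiser, was not called at -0.30 ± 0.11 (limma, adjusted p = 0.068). All but Grin2c and Cbln3 of these 8 were apart between the groups. Over the whole list 7 of 20 were apart and lower, beside 1.92% of all genes.

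In the first code set the median was -0.56, with 10 members lower, and in the second -0.20, none called by limma and 9 at an unadjusted p below 0.05; the difference between the sets was tested for single genes alone, and none of the 20 passed. Summed over the list, the level was 6932 to 8661 CPM in control and 4417 to 6533 in Rnaseh2b libraries, lowest in Rnaseh2b 3. Without Rnaseh2b 3 and 7, 11 fell (median -0.30). With the brainstem covariate limma called none of the 20 (median -0.18), beside 73 of all 15078 genes. In that fit 3 had an unadjusted p below 0.05, beside 1898 of all genes. Of 12 genes of granule progenitors and Sonic hedgehog signalling, which are active in the young cerebellum, Boc fell by 0.31 ± 0.10 and Ccnd1 rose by 0.35 ± 0.11. Each is a share of 8.33%, near the 7.67% of all genes called lower and the 8.65% called higher. Limma called none of 10 mitosis genes, with 2 at an unadjusted p below 0.05.

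Several interneuron genes of the molecular layer were lower. Of 16 tested genes of these cells and of Golgi cells 8 fell (50%, beside 7.67% of all genes) and 2 rose (12.5%, beside 8.65%). The median was -0.25, and 7 of the 16 differences were above 0. The falls included Kit and Sorcs3, a sorting receptor, at 4.91 to 5.52 log2 CPM (median 5.09) in control and 4.31 to 4.86 (median 4.39) in Rnaseh2b libraries, -0.71 ± 0.10 (limma, adjusted p = 0.00099). Lypd6, which binds nicotinic receptors, was 4.06 to 4.56 log2 CPM (median 4.48) in control and 3.60 to 3.88 (median 3.72) in Rnaseh2b libraries, -0.63 ± 0.09 (limma, adjusted p = 0.00074), and Tfap2b, a transcription factor of inhibitory precursors, was 4.55 to 5.05 log2 CPM (median 4.76) in control and 3.99 to 4.37 (median 4.09) in Rnaseh2b libraries, -0.62 ± 0.08 (limma, adjusted p = 0.00071). Ptprk, a receptor phosphatase, fell by 0.34 ± 0.06. In these 5 of the 16 genes the groups did not overlap, beside 1.92% of all genes that were apart and lower. With the brainstem covariate the same 5 were called, Sorcs3 at -0.81, Kit at -0.71, Tfap2b at -0.67, Lypd6 at -0.66 and Ptprk at -0.40.

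Sorcs3, Lypd6, Tfap2b and Ptprk had an effect at least as large in the second code set as in the first. For Sorcs3 it was -0.54 and -0.84, for Lypd6 -0.58 and -0.67, for Tfap2b -0.53 and -0.69, and for Ptprk -0.28 and -0.38. In the first set 6 of the 16 fell (median -0.13) and in the second 5 (median -0.22), and none rose in either. Of all 15078 genes 487 were called lower in the first set and 28 in the second. The neuropeptide gene Npy (-0.49 ± 0.12) and the cadherin Cdh22 (-0.27 ± 0.07) were also among the members that fell. Those that rose were Lgi2 (0.25 ± 0.07) and Sst, the precursor of somatostatin, which Golgi cells express; Sst was 2.21 to 3.29 log2 CPM (median 3.08) in control and 3.39 to 4.21 (median 3.59) in Rnaseh2b libraries, 0.81 ± 0.18 (limma, adjusted p = 0.0098), and apart.

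Purkinje cell genes were mostly uncalled. Of 30 tested, 5 rose (16.7%, beside 8.65% of all genes) and none fell, with a median of 0.16, -0.07 in the first code set and 0.30 in the second. Foxp2, a transcription factor of Purkinje cells and of nuclear neurons, was 4.21 to 4.77 log2 CPM (median 4.60) in control and 4.86 to 5.13 (median 4.99) in Rnaseh2b libraries, 0.47 ± 0.09 (limma, adjusted p = 0.0052), and apart. Others that rose were Nefh (0.40 ± 0.12), the heavy neurofilament, Pcp4 (0.32 ± 0.10) and Gad2 (0.24 ± 0.07), a GABA-synthesising enzyme. Calb1, the calcium buffer, was 9.14 to 9.66 log2 CPM (median 9.43) in control and 8.95 to 9.83 (median 9.56) in Rnaseh2b libraries and was not called, at 0.15 ± 0.13 (limma, adjusted p = 0.44), with -0.21 and 0.42 in the code sets. Car8 and Itpr1, partners in calcium release from stores, were at 0.25 ± 0.15 and 0.22 ± 0.11, also not called. Of the 30, 1 rose in the first code set and 3 in the second. The count of 5 was 1 with the replicate block, 2 with Xist or the choroid plexus as a covariate or without Rnaseh2b 1, 3 without the variance trend or without control 2, 3 or 7 or Rnaseh2b 5 or 6, and 8 with library weights or without Rnaseh2b 3 and 7. Limma called none of the 30 with the brainstem covariate, and 15 were at an unadjusted p below 0.05.

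**Figure D4:**
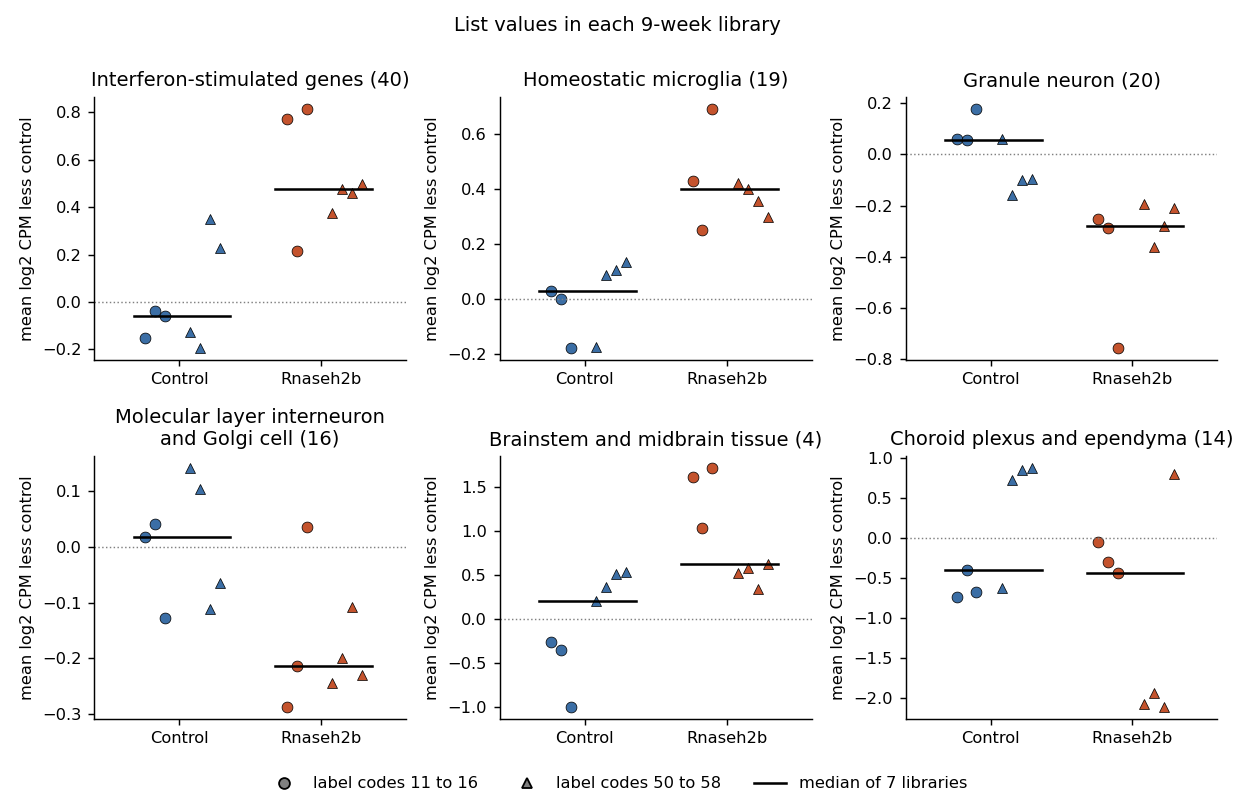
Average distance from the control mean, in log2 CPM, of the tested members (vertical axes) of 6 gene lists in each library, with circles for label codes 11 to 16, triangles for codes 50 to 58 and a line at the median of 7 libraries. The granule neuron and homeostatic microglia values are apart between the groups in all 14 libraries, the brainstem values are apart only among the circles, and the choroid plexus values are lowest in 3 triangles of the Rnaseh2b group.

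Receptors and channels had calls in both directions, as had all genes tested (8.65% higher and 7.67% lower). Of 18 GABA and glycine receptor genes 7 rose (38.9%) and 2 fell (11.1%). In the first code set 5 rose and 2 fell, and none was called in the second, where 6 had an unadjusted p below 0.05 (limma). The 7 rises became 4 with the replicate block, without control 1, 2 or 3, Rnaseh2b 2 or Rnaseh2b 5, or without Rnaseh2b 3 and 7, and 3 without Rnaseh2b 3. Gabra5, a subunit of extrasynaptic receptors, was 1.66 to 2.95 log2 CPM (median 2.33) in control and 2.87 to 3.50 (median 3.16) in Rnaseh2b libraries, 0.91 ± 0.17 (limma, adjusted p = 0.0035), and the glycine receptor subunit Glra2 1.77 to 2.44 log2 CPM (median 2.14) and 2.4 to 3.38 (median 2.85), 0.73 ± 0.14 (limma, adjusted p = 0.0038). Gabrg3 rose by 0.69 ± 0.13. The 2 that fell, Gabra6 and Gabrd (-0.38 ± 0.11), form the extrasynaptic receptor of granule neurons. Of 22 glutamate receptor genes 4 rose (18.2%) and 3 fell (13.6%), with 4 and 2 in the first code set and 1 and 0 in the second, and 1 fell with the replicate block. The metabotropic receptor Grm7 was 5.18 to 5.49 log2 CPM (median 5.38) in control and 5.74 to 5.96 (median 5.84) in Rnaseh2b libraries, 0.49 ± 0.06 (limma, adjusted p = 0.00029), apart, and Grm5 was 5.24 to 6.13 log2 CPM (median 5.68) and 6.09 to 6.56 (median 6.2), 0.60 ± 0.11 (limma, adjusted p = 0.0035). Grik4 (0.39 ± 0.10) and Grik1 (0.26 ± 0.06) also rose, and the 3 that fell were Grik2 (-0.38 ± 0.10), Grin2c and Gria4 (-0.21 ± 0.06).

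Of 30 calcium, sodium and potassium channel genes 5 rose (16.7%, beside 8.65% of all genes) and 6 fell (20%, beside 7.67%). These were 4 and 5 in the first code set and 0 and 1 in the second, and the falls were 3 without control 3. With the brainstem covariate limma called none of the GABA and glycine receptor genes, with 3 at an unadjusted p below 0.05, and 1 gene of each other list, Grm7 (0.41) and Cacna2d3 (-0.46). Cacna2d3, an auxiliary subunit of calcium channels, was 5.80 to 6.14 log2 CPM (median 5.96) in control and 5.17 to 5.60 (median 5.52) in Rnaseh2b libraries, -0.50 ± 0.07 (limma, adjusted p = 0.00079), without overlap, and was -0.56 and -0.46 in the code sets. The potassium channel Kcnc2 was 4.17 to 5.10 log2 CPM (median 4.58) in control and 5.21 to 5.61 (median 5.23) in Rnaseh2b libraries, 0.70 ± 0.12 (limma, adjusted p = 0.0025), and the sodium channel subunit Scn4b was 5.70 to 6.21 log2 CPM (median 6.05) in control and 6.35 to 7.02 (median 6.66) in Rnaseh2b libraries, 0.59 ± 0.10 (limma, adjusted p = 0.0026), both apart. Kcnh7 (0.53 ± 0.10), Cacna1h (0.58 ± 0.13) and Scn3a (0.59 ± 0.14) rose too. Of the guidance genes besides Ntn1 and Slit1, the receptor Robo2 was 5.64 to 5.87 log2 CPM (median 5.74) in control and 6.13 to 6.34 (median 6.21) in Rnaseh2b libraries, 0.48 ± 0.05 (limma, adjusted p = 0.00011), apart, and Unc5d, a netrin receptor, rose by 0.47 ± 0.07. In that list 6 of 20 rose (30%, beside 8.65% of all genes) and 2 fell (10%, beside 7.67%), Ntn1 and its receptor Unc5c (-0.37 ± 0.07). Of 10 neuropeptide and catecholamine genes 6 rose (60%) and 1 fell (10%), beside 8.65% and 7.67% of all genes, with a median of 0.48. In the first code set 2 rose and 1 fell, in the second none, with 7 there at an unadjusted p below 0.05 (limma). Nts, the precursor of neurotensin, was at 1.29 ± 0.29, Adcyap1, which encodes PACAP, at 0.51 ± 0.10, and Th, the tyrosine hydroxylase of catecholamine neurons and a member of the brainstem list too, at 0.77 ± 0.17. With the brainstem covariate, of which Th is a part, Nts (1.41), Tac1 (0.89), Sst (0.64), Th (0.43) and Adcyap1 (0.41) were not called.

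Few target genes of p53 were called. Of 33 tested, 5 rose (15.2%) and 3 fell (9.09%), beside 8.65% and 7.67% of all genes, so the share that fell was near that of all genes. In the first code set 2 rose and 1 fell, in the second none, with 7 there at an unadjusted p below 0.05 (limma). The list had a median of 0.01 that became -0.01 with FPKM values in place of CPM. Phlda3, an inhibitor of Akt, was 2.31 to 3.09 log2 CPM (median 2.76) in control and 3.11 to 3.98 (median 3.41) in Rnaseh2b libraries, 0.66 ± 0.14 (limma, adjusted p = 0.0067). The groups were apart, and the effect was 1.07 in the first and 0.35 in the second code set. Abhd4 (0.26 ± 0.06), the nuclease Aen (0.26 ± 0.06), Sulf2 (0.35 ± 0.10) and Rrm2b were the others that rose. Cdkn1a, the cell cycle inhibitor p21, was 2.14 to 2.78 log2 CPM (median 2.43) in control and 1.58 to 2.37 (median 2.05) in Rnaseh2b libraries and fell, at -0.44 ± 0.14 (limma, adjusted p = 0.046), -0.79 in the first and -0.19 in the second set. Ddb2, which recognises damaged DNA (-0.26 ± 0.08), and Sesn1 (-0.21 ± 0.06) fell as well. The 3 falls were not called with the replicate block, with Xist as a covariate, or without control 2, control 3, Rnaseh2b 1 or Rnaseh2b 5, and 3 members rose with the block, with Xist or with FPKM values. With the brainstem covariate limma called no target, with 6 at an unadjusted p below 0.05.

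Genes of the response to DNA breaks were lower where they were called. Of 31 tested, 5 fell (16.1%), beside 7.67% of all genes, and none rose, with a median of -0.06. In the first code set 2 fell (median -0.12) and in the second none, with 5 at an unadjusted p below 0.05 (limma, median -0.04). Xrcc6, the Ku70 subunit that binds DNA ends, was 4.60 to 4.80 log2 CPM (median 4.70) in control and 4.36 to 4.52 (median 4.48) in Rnaseh2b libraries, -0.26 ± 0.05 (limma, adjusted p = 0.004), and apart. Mdc1 (-0.30 ± 0.07), which gathers repair factors at breaks, Brca2 (-0.29 ± 0.09), Parp2 (-0.28 ± 0.08) and Mre11a (-0.21 ± 0.06) were the others, with ranges that overlapped. The 5 falls became 2 with the replicate block, without control 3 or without Rnaseh2b 3, and 3 with Xist or the choroid plexus as a covariate or without control 2, Rnaseh2b 1, Rnaseh2b 2 or Rnaseh2b 5. They became 8 without control 1 or without the code set term, and with the brainstem covariate limma called none, with 4 at an unadjusted p below 0.05. Of 16 replication genes Pola1, the polymerase that lays down primers, fell by 0.32 ± 0.07 (limma, adjusted p = 0.0099) and Mcm3 of the replicative helicase rose by 0.35 ± 0.10. Each is a share of 6.25%, below those of all genes (7.67% and 8.65%).

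None of the remaining lists described here had more than 4 members called in a direction. Of 18 circadian genes 4 fell (22.2%, beside 7.67% of all genes), Nr1d2 (-0.24 ± 0.06), Cry1 (-0.23 ± 0.07) and Clock (-0.21 ± 0.06) among them, with a median of -0.06, 1 in the first code set and none in the second, and 2 fell with the replicate block, with Xist as a covariate or without control 3, Rnaseh2b 3, Rnaseh2b 5 or both Rnaseh2b 3 and 7. In the lists of immediate early genes, heat shock and unfolded protein, and Nrf2 targets 1 member each rose and none fell: Ier3 (0.37 ± 0.12), Sdf2l1 (0.35 ± 0.09) and Mt2 (0.43 ± 0.11). The shares of 5.88%, 5.56% and 7.69% were below the 8.65% of all genes. Phgdh, the first enzyme of serine synthesis, was 4.74 to 5.06 log2 CPM (median 4.90) in control and 5.22 to 5.50 (median 5.35) in Rnaseh2b libraries, 0.42 ± 0.06 (limma, adjusted p = 0.0012), apart. It was the 1 of 13 integrated stress and serine genes to pass (7.69%, beside 8.65% of all genes called higher). Of 28 genes of inherited ataxia 2 rose, Elovl5 (0.29 ± 0.08) and Ppp2r2b (0.29 ± 0.06), and 4 fell, Fgf14 (-0.27 ± 0.07), Tbp (-0.26 ± 0.08) and Kcnd3 (-0.20 ± 0.06) among them, shares of 7.14% and 14.3% beside 8.65% and 7.67% of all genes. In the first code set 1 rose and 1 fell, in the second none. The 4 falls became 1 without control 3 or without Rnaseh2b 3 and 7, and 2 with Xist or the choroid plexus as a covariate or without control 7, Rnaseh2b 3 or Rnaseh2b 5. Limma called none of 15 mitochondrially encoded and none of 20 nuclear respiratory chain genes, with 0 and 4 at an unadjusted p below 0.05. Of 13 meningeal genes 4 rose, Igf2 (0.37 ± 0.08), Slc6a13 (0.32 ± 0.09), Col1a2 (0.38 ± 0.11) and Col3a1 (0.30 ± 0.09), and of 20 vessel genes 3, Abcc9 (0.38 ± 0.07), Kcnj8 (0.31 ± 0.10) and Vtn (0.22 ± 0.07), shares of 30.8% and 15% beside 8.65% of all genes. Limma called no meningeal gene in either code set alone, with 6 and 5 at an unadjusted p below 0.05, and 1 vessel gene in the first set. When 1 library was left out, 1 to 5 meningeal genes rose, with 1 without Rnaseh2b 1, 5 or 6, and 1 to 6 vessel genes. Limma called no circadian, ataxia, meningeal or vessel gene with the brainstem covariate, with 3, 4, 3 and 3 at an unadjusted p below 0.05. Limma called none of 6 blood genes, with 0 at an unadjusted p below 0.05, and Hba-a1 was at 6.31 to 6.96 log2 CPM (median 6.68) in control and 6.17 to 7.06 (median 6.59) in Rnaseh2b libraries.

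The libraries of the younger mice share no control with those of 9 weeks, and the sign of the difference of means at those ages was counted for the genes called here. They were normalised apart, and those of P28 are labelled poly-A RNA. The groups also differed in sex-linked genes at both ages. Of 5 such genes 4 had a mean above control at P28 (median 2.47) and 4 at P5 (median 10.44). The part of sex in the counts and medians of these ages was not tested. Of the 1300 genes higher at 9 weeks that had a P28 value, 1077 had a mean above control at P28 (82.8%), and of 1137 lower genes 870 had a mean below (76.5%). Among all genes tested with a 9-week difference of the same sign, called or not, these shares were 61.1% and 62.9%. At P5 they were 57.9% of the higher and 66.3% of the lower genes, against 57.9% and 55.5%. Of the genes with the largest changes, the differences of means at P28 were -0.94 for Sla, -0.61 for Kit, -0.86 for Ntn1, 1.38 for Igsf1 and 1.24 for Wif1. At P5 the same genes were at -0.29, -0.17, 0.03, 0.34 and 0.55.

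The lists were followed at the younger ages in the same way. Of all genes tested, 7321 of 14847 were above 0 at P28 and 7700 of 15012 at P5. In the 40 interferon-stimulated genes 34 differences of means were above 0 at P28, with a median of 0.30, and 37 at P5, with a median of 0.45. Of the 20 granule neuron genes 18 were below 0 at P28 (median -0.25) and 7 at P5 (median 0.05). In the interneuron and Golgi list 12 of 16 were below 0 at both ages, with medians of -0.32 and -0.14. Homeostatic microglia genes were above 0 in 16 of 19 at P28 and in 14 of 19 at P5, at medians of 0.12 and 0.15. Other lists were shifted at P5 as well. The 20 myelin genes (median 0.85) and the 16 replication genes (median 0.35) were all above 0 there. Of 33 p53 targets 27 were above 0, and of 18 GABA and glycine receptor genes 16 were below. None of these differences between ages was tested.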

How the data were processed

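The 14 libraries at 9 weeks were made from TRIzol-extracted RNA with the TruSeq Stranded Total RNA kit and sequenced on an Illumina instrument, per the labels' protocols. The submitters' processing notes name Trim Galore, STAR, BWA, HTSeq, limma and the build mm9, without roles; how the authors used them is not given in the sources used here. The main values are log2 CPM as deposited by the authors. The means of the 2 code sets were equal in every feature, to within 3.12e-09 log2 CPM, so the deposited values had already been centred between them. The deposited FPKM values served as an alternative; 30976 of them were below 0 and were set to 0. Read depth could not be recovered from these values and is unknown.

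Features reaching 1 CPM in at least 7 libraries were fitted with limma 3.58.1 (R 4.3.3) with a term for the code set and a variance trend, and p-values were adjusted by Benjamini-Hochberg over all 15078. The same fit gave the effect within each code set and the difference between them, and the fits were tested on simulated data. Alternatives were other variance priors, filters, normalizations, FPKM with 2 pseudocounts, a replicate block, Xist as a covariate, each code set alone and each library left out. The brainstem and choroid plexus covariates and the fit without Rnaseh2b 3 and 7 were chosen after seeing the data.

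The members and lists were chosen with earlier results of these data known. Named genes are Rnaseh2b, the 12 largest rises and falls, up to 4 called members of each list by adjusted p, the 4 most expressed members of cell type, p53, interferon and RNase H2 lists, the genes that differed between code sets and tissue markers. Others, named to complete a count or a group, were chosen after their values were seen: Irgm1, Ifit1, Irf7, H2-K1, H2-D1, Gja1, Neurod1, Pax6, Gabrd, Npy, Cdh22, Sst, Pcp4, C1ql1, Grik4, Grik2, Gria4, Cacna1h, Scn3a, Cdkn1a, Ddb2, Brca2, Unc5c, Fgf14, Tbp, Kcnd3 and the gene model Gm16836 and RNaseP_nuc. Of 783 list genes 726 were found by symbol, 11 by synonym and 46 not. Some members counted in the lists are not reported here by name.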

Additional observations from a re-analysis of the deposited data

Results flagged for a closer look

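In 30 of 334 sets of 7 libraries (167 genes named, both groups) the highest or lowest library stood apart from its group by more than Dixon's 95% critical value, and chance alone flags about 1 in 20 such sets. Rnaseh2b 3 was the library concerned for 13 genes, more than any other. It was low, in log2 CPM, for Cbln3 at 8.81 (the others 9.42 to 9.53), Gabra6 at 8.33 (the others 8.92 to 9.16), Grin2c at 7.26 (the others 7.52 to 7.71), Neurod1 at 6.92 (the others 7.54 to 7.77), Pax6 at 6.02 (the others 6.46 to 6.68), Slc17a7 at 7.13 (the others 7.40 to 7.55) and Slc1a3 at 9.51 (the others 9.88 to 10.15). It was high for C1ql1 at 2.29 (the others 1.21 to 1.56), Gbp7 at 3.56 (the others 3.22 to 3.36), Irgm1 at 3.43 (the others 2.69 to 2.95), Olig1 at 5.76 (the others 5.0 to 5.20), Sorcs3 at 4.86 (the others 4.31 to 4.43) and Sulf2 at 5.19 (the others 4.66 to 4.77). Control 2 stood apart for Abcc9 at 3.34 (the others 3.57 to 3.69). Control 3 stood apart for Grik2 at 8.91 (the others 8.37 to 8.49), Nefh at 6.27 (the others 6.76 to 6.99), Sesn1 at 6.80 (the others 6.43 to 6.57) and Sulf2 at 3.99 (the others 4.40 to 4.61). Control 4 stood apart for Ctss at 3.93 (the others 4.46 to 4.83). Control 5 stood apart for Ptprk at 5.91 (the others 5.64 to 5.71) and Stat2 at 5.33 (the others 5.62 to 5.77). Control 6 stood apart for Mcm3 at 1.71 (the others 1.30 to 1.48) and Npy at 2.50 (the others 2.94 to 3.22). Rnaseh2b 1 stood apart for Gja1 at 7.64 (the others 7.79 to 7.88) and Tbk1 at 5.53 (the others 5.64 to 5.70). Rnaseh2b 2 stood apart for Ntn1 at 4.34 (the others 4.72 to 4.93). Rnaseh2b 5 stood apart for Grik1 at 4.58 (the others 4.86 to 4.93). Rnaseh2b 6 stood apart for Npy at 3.01 (the others 2.28 to 2.59). Rnaseh2b 7 stood apart for Prdm8 at 3.26 (the others 2.55 to 2.80) and Tac1 at 1.79 (the others 2.72 to 3.41). 

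The effect of the deletion differed between the code sets, by the test of the difference itself in limma, in 5 genes. For Tph2 the effect in the second set less that in the first was -4.61 log2 (adjusted p = 0.0089). For Ddc the effect in the second set less that in the first was -2.00 log2 (adjusted p = 0.015). For Tdg the effect in the second set less that in the first was 0.78 log2 (adjusted p = 0.024). For RNaseP_nuc the effect in the second set less that in the first was 11.95 log2 (adjusted p = 0.00013). For Gm16836 the effect in the second set less that in the first was -1.05 log2 (adjusted p = 0.0089).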

How the results depend on the processing

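The count of 2461 called genes fell to 1084 in the first code set alone, 90 in the second alone, 73 with the brainstem covariate (chosen after seeing the data) and 1465 without Rnaseh2b 3 and 7; it lay between 1326 and 2634 when 1 library was left out. Apart from these and the replicate block (1390), it stayed within 1.5 times under the settings that kept all 14 libraries, and median centring gave 1222 higher and 1267 lower. The replicate numbers do not pair the samples (correlation of deviations -0.38 to 0.16 over the 7 pairs, with 3 of 7 libraries closest to their own number), and the block called 1390 genes. The 5 genes that differed between the code sets became 16 with FPKM plus 0.1 and 9 with FPKM plus 1, and 3 to 28 with 1 library left out. Without the variance trend the first code set had 288 calls and the second 7. Leaving out 1 library gave 9 to 1435 in the first. Leaving out 1 library gave 2 to 104 in the second. Fold changes that turned were not called in the pooled comparison: Mertk (-0.064), Car8 (-0.11), Calb1 (-0.21), Ttr (0.37), Hba-a1 (0.084), Otx2 (0.062) and Tdg (-0.30) in the first code set alone; Otx2 (0.028) with the choroid plexus covariate; Slc1a3 (0.027), Ddc (-0.060) and RNaseP_nuc (1.47) in the second alone; Slc1a3 (0.064), Ddc (-0.17) and RNaseP_nuc (1.21) with the brainstem covariate; RNaseP_nuc at 0.11 and 0.014 with FPKM plus 0.1 and 1; and Hba-a1, at -0.16 to 0.0010 with 1 library left out and above 0 without Rnaseh2b 5. The cause was not tested. Of 166 named genes, 124 lost their call with the brainstem covariate, 39 with the replicate block and 7 to 41 when 1 library was left out, the most without control 3. In the 124 genes that lost their call with the brainstem covariate the median size of the log2 fold change was 0.43 without it and 0.31 with it. In 70 the size was smaller by less than 1.5 times or no smaller, among them 13 in which it was no smaller. In the rest of the 124 it was smaller by more than 1.5 times. Unknown depth limits what can be said of genes near 1 CPM.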
